A study of Homo sapiens with 12 samples.

Results

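The MAP kinase cascade genes and the dual-specificity phosphatase genes of SK-N-BE(2) neuroblastoma cells are described here, 71 of the 14884 genes tested on the arrays. They were matched by a pattern of symbols, which was chosen with earlier results of these data known. It covers kinases of the 4 tiers of the cascade (MAPK, MAP2K, MAP3K and MAP4K) and kinases that MAPKs act on (MAPKAPK and MKNK genes). It also covers the DUSP phosphatases and the Sprouty inhibitors. The pattern matched 78 symbols, and 7 of them were left out as antisense genes or because the symbol ends in P and a number. DUSP symbols, which end that way too, were kept. The rule on endings also removed the JNK scaffold genes MAPK8IP1, MAPK8IP2 and MAPK8IP3. The members comprise 10 MAPKs, 6 MAP2Ks, 17 MAP3Ks, 3 MAP4Ks, 5 downstream kinases, 10 MAPK phosphatases, 14 atypical DUSPs, 3 Sprouty genes and 3 genes that share only the name (MAP3K7CL, MAPK1IP1L and the long noncoding RNA MAP4K3-DT). Members of these families that are not named below were not analysed here.

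SK-N-BE(2) is a human cell line with an amplified MYCN gene from neuroblastoma, a tumour of the sympathetic nervous system. Cells had been treated for 6 h with 1 µM JQ1, with 10 nM panobinostat, with JQ1 and panobinostat together, or with vehicle, and total RNA from 3 samples of each of the 4 groups had been hybridised to 12 Affymetrix Human Gene 2.0 ST arrays. JQ1 displaces the BET bromodomain proteins from acetylated histones, and panobinostat inhibits histone deacetylases. All groups share the 1 cell line. The labels do not say whether replicates came from separate cultures, so the p-values measure array-to-array spread within a group, and that spread may be technical only.

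A MAP kinase cascade passes a signal through phosphorylation in steps: a MAP3K activates a MAP2K, which activates a MAPK. MAP2K1 and MAP2K2 serve ERK, MAP2K3 and MAP2K6 serve p38, and MAP2K4 serves mainly JNK. Active MAPKs phosphorylate transcription factors and further kinases such as MKNK2, and DUSP phosphatases and Sprouty proteins turn the pathways down again, many of them being transcribed in response to the pathway they restrain. RAS and ERK signalling is known as a pathway that is often mutated in relapsed neuroblastoma. The arrays measured mRNA only, and neither phosphorylation nor protein was measured.

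Values are the deposited signal intensities, taken as log2 because they run from 1.391 to 14.097, and a difference of 1 is then a doubling. Array medians lay between 6.119 and 6.292. Correlations over the 14884 genes tested were 0.991 to 0.995 between arrays of a group and 0.962 to 0.989 between arrays of different groups, and no array stood apart. 9 of 10 genes that define a sympathetic neuroblastoma line were measured, with log2 signals of 8.22 to 12.77 over the arrays, whereas the 4 measured of 8 markers of other cells (EPCAM, KRT5, ALB and PECAM1, of epithelial, liver and endothelial cells) lay between 5.14 and 7.24. No detection calls or background estimates came with the values, so how far a dim gene stood above background is unknown. Differences are given as log2 ± SE from 1 limma fit of all 12 arrays, with p-values adjusted by Benjamini-Hochberg over the 14884 genes, and a change is called at an adjusted p under 0.05. An exact permutation test of 3 arrays against 3 cannot give a two-sided p below 0.1, so no gene was tested that way.

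MKNK2 and the MAP2K genes that serve p38 are described first. The bases before the transcription start of MKNK2, MAP2K3 and MAP2K6 are shown because MKNK2 and MAP2K3 were higher with each compound while MAP2K6, which encodes an enzyme of the same step as MAP2K3, was lower with JQ1. Each is the 250 bases upstream of the start in RefSeq, build GRCh38.p14, written 5′ to 3′ on the gene's strand, with the matched motifs in capitals. The MKNK2 window is chr19:2051245-2051494 on the minus strand, the MAP2K3 window chr17:21284461-21284710 on the plus strand and the MAP2K6 window chr17:69414447-69414696 on the plus strand.
MKNK2: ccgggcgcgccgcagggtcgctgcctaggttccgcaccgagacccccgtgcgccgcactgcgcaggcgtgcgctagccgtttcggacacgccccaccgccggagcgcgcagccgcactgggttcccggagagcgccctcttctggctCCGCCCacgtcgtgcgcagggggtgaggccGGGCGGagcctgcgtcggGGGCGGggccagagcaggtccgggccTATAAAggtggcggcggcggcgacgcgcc
MAP2K3: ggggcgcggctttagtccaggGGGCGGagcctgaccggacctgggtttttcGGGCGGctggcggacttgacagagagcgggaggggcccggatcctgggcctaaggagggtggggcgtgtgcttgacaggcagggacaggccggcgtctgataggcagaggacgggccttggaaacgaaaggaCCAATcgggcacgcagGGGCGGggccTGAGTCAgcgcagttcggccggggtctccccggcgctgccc
MAP2K6: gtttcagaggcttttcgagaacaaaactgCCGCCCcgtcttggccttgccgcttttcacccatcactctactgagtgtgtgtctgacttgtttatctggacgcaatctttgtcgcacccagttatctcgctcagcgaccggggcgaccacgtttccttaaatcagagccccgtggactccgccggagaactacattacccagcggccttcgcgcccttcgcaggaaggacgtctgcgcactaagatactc

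Motifs were searched on both strands, and none of those marked overlap. The TATA box was searched as TATAAA, which places the start of transcription. The E-box that MYC proteins bind was searched as CACGTG. The AP-1 site, which FOS and JUN proteins bind, was searched as TGANTCA. The cyclic AMP response element was searched as TGACGTCA. The GC box, bound by SP1, was searched as GGGCGG. The remaining motifs were the CCAAT box, searched as those letters, and the ETS site CCGGAAG. The MKNK2 window holds a TATA box that begins 29 bases before the start and GC boxes at 103, 73 and 55 bases before it. A TATA box is found in 11.1% of all 27305 promoters of the same length and in 2 of the 62 members with an entry, MKNK2 and DUSP1. The MAP2K3 window holds GC boxes at 229, 199 and 51 bases, a CCAAT box at 67 bases and an AP-1 match at 41 bases before the start, and MAP2K3 is the 1 member of 62 with an AP-1 match, against 6.6% of all promoters. The MAP2K6 window holds 1 GC box, 221 bases before the start. GC boxes occur in 48 of the 62 member promoters (77.4%), against 42.3% of all promoters, and the E-box in 4 (DUSP1, DUSP2, MAPK3 and MAPK12), or 6.45% against 6.49%. The GC box shares were not compared with promoters of protein-coding or of expressed genes alone. They are therefore not read as a trait of these gene families. A match describes the letters only.

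MKNK2, which encodes the kinase MNK2 that phosphorylates the translation factor eIF4E after activation by ERK or p38, had log2 signals of 10.04, 9.91 and 9.95 on the JQ1 arrays, 9.72, 9.75 and 9.87 on the panobinostat arrays and 10.42, 10.41 and 10.46 on the arrays with both compounds, against 8.67, 8.41 and 8.59 on the vehicle arrays. Every treated array lay above every vehicle array, and every array with both compounds lay above every array with a single compound. The rise over vehicle was 1.41 ± 0.08 with JQ1 (2.67-fold, limma adjusted p = 1.43e-06), 1.23 ± 0.08 with panobinostat (2.34-fold, limma adjusted p = 1.14e-06) and 1.88 ± 0.08 with both (3.67-fold, limma adjusted p = 1.67e-08). These were the largest rises among the 71 genes in each of the 3 comparisons with vehicle. In a bulk sample, fewer cells with a transcript and less of it per cell cannot be told apart, here and for every gene below.

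MAP2K6, which encodes the p38 activator MKK6, behaved differently with the compounds: it had 8.21, 8.13 and 8.29 with JQ1, 9.12, 9.30 and 9.35 with panobinostat and 9.37, 9.42 and 9.54 with both, against 9.12, 9.01 and 9.04 with vehicle. The JQ1 arrays were the lowest of all 12, the panobinostat arrays overlapped the vehicle arrays, and the arrays with both compounds lay above the vehicle arrays. MAP2K6 fell by 0.85 ± 0.08 with JQ1 (limma adjusted p = 4.92e-05) and rose by 0.39 ± 0.08 with both compounds (limma adjusted p = 0.0022), whereas the difference with panobinostat was 0.20 ± 0.08 (limma adjusted p = 0.0911), which did not pass the test as reported and passed under 4 of 21 alternative settings. With both compounds MAP2K6 was higher than with JQ1 by 1.24 ± 0.08 (limma adjusted p = 1.88e-06), and the difference from panobinostat, 0.19 ± 0.08, did not pass (limma adjusted p = 0.147).

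MAP2K3, which encodes the other dedicated p38 activator, MKK3, had 8.30, 8.19 and 8.29 with JQ1, 8.47, 8.42 and 8.44 with panobinostat and 8.83, 9.02 and 8.82 with both, against 7.63, 7.40 and 7.64 with vehicle. The 4 groups did not overlap, with vehicle lowest and the combination highest. The rises over vehicle were 0.71 ± 0.08 with JQ1, 0.89 ± 0.08 with panobinostat and 1.33 ± 0.08 with both (limma adjusted p = 0.000159, 1.64e-05 and 2.61e-07).

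**Figure D1:**
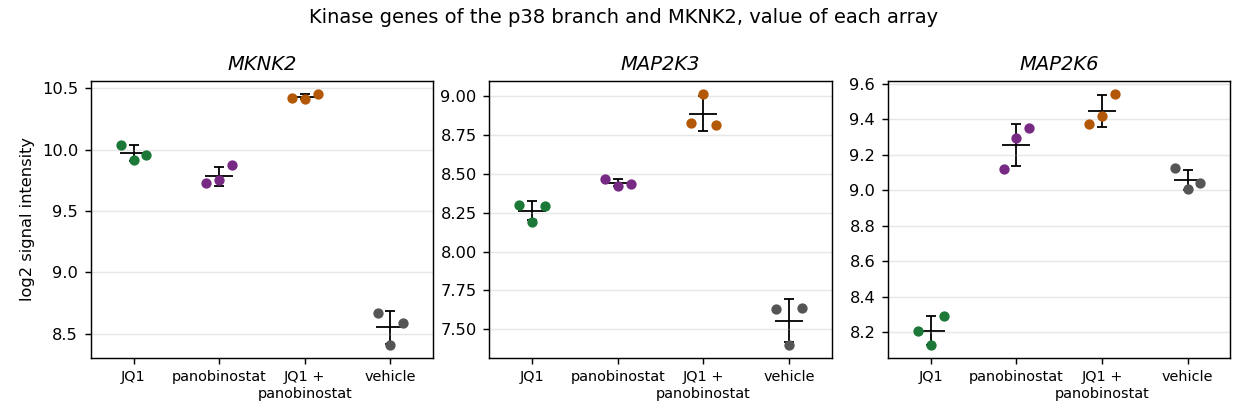
The log2 signal intensity of MKNK2, MAP2K3 and MAP2K6 on each of the 12 arrays, by group, with 1 point per array, the group mean as a horizontal bar and the SD of 3 arrays as error bars. MKNK2 and MAP2K3 lie above vehicle in all treated groups, whereas MAP2K6 lies at 8.13 to 8.29 on the JQ1 arrays and at 9.01 or above on all others.

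Over all members, 20 of 71 were called with JQ1 against vehicle, 12 higher and 8 lower, against 17.6% of all genes tested (8.18% higher and 9.47% lower). With panobinostat 36 of 71 were called, 16 higher and 20 lower, against 29.3% of all genes (14.5% higher and 14.8% lower). With both compounds 41 of 71 were called, 20 higher and 21 lower, against 37.7% of all genes (18.2% higher and 19.5% lower). The median difference of the 71 genes was 0.0016 with JQ1, -0.0010 with panobinostat and -0.022 with both, beside 0.011, 0.031 and 0.025 over all genes. Of the 71 members, 51 have a mean signal above that of the median gene, and 11 lie under the 40th percentile of mean signal. Without the genes under that percentile, 28 of 60 members (46.7%) were called with JQ1 against 32.7% of all 8930 genes, 36 of 60 (60.0%) against 48.3% with panobinostat, and 41 of 60 (68.3%) against 59.0% with both. The 3 comparisons share the vehicle arrays.

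**Figure D2:**
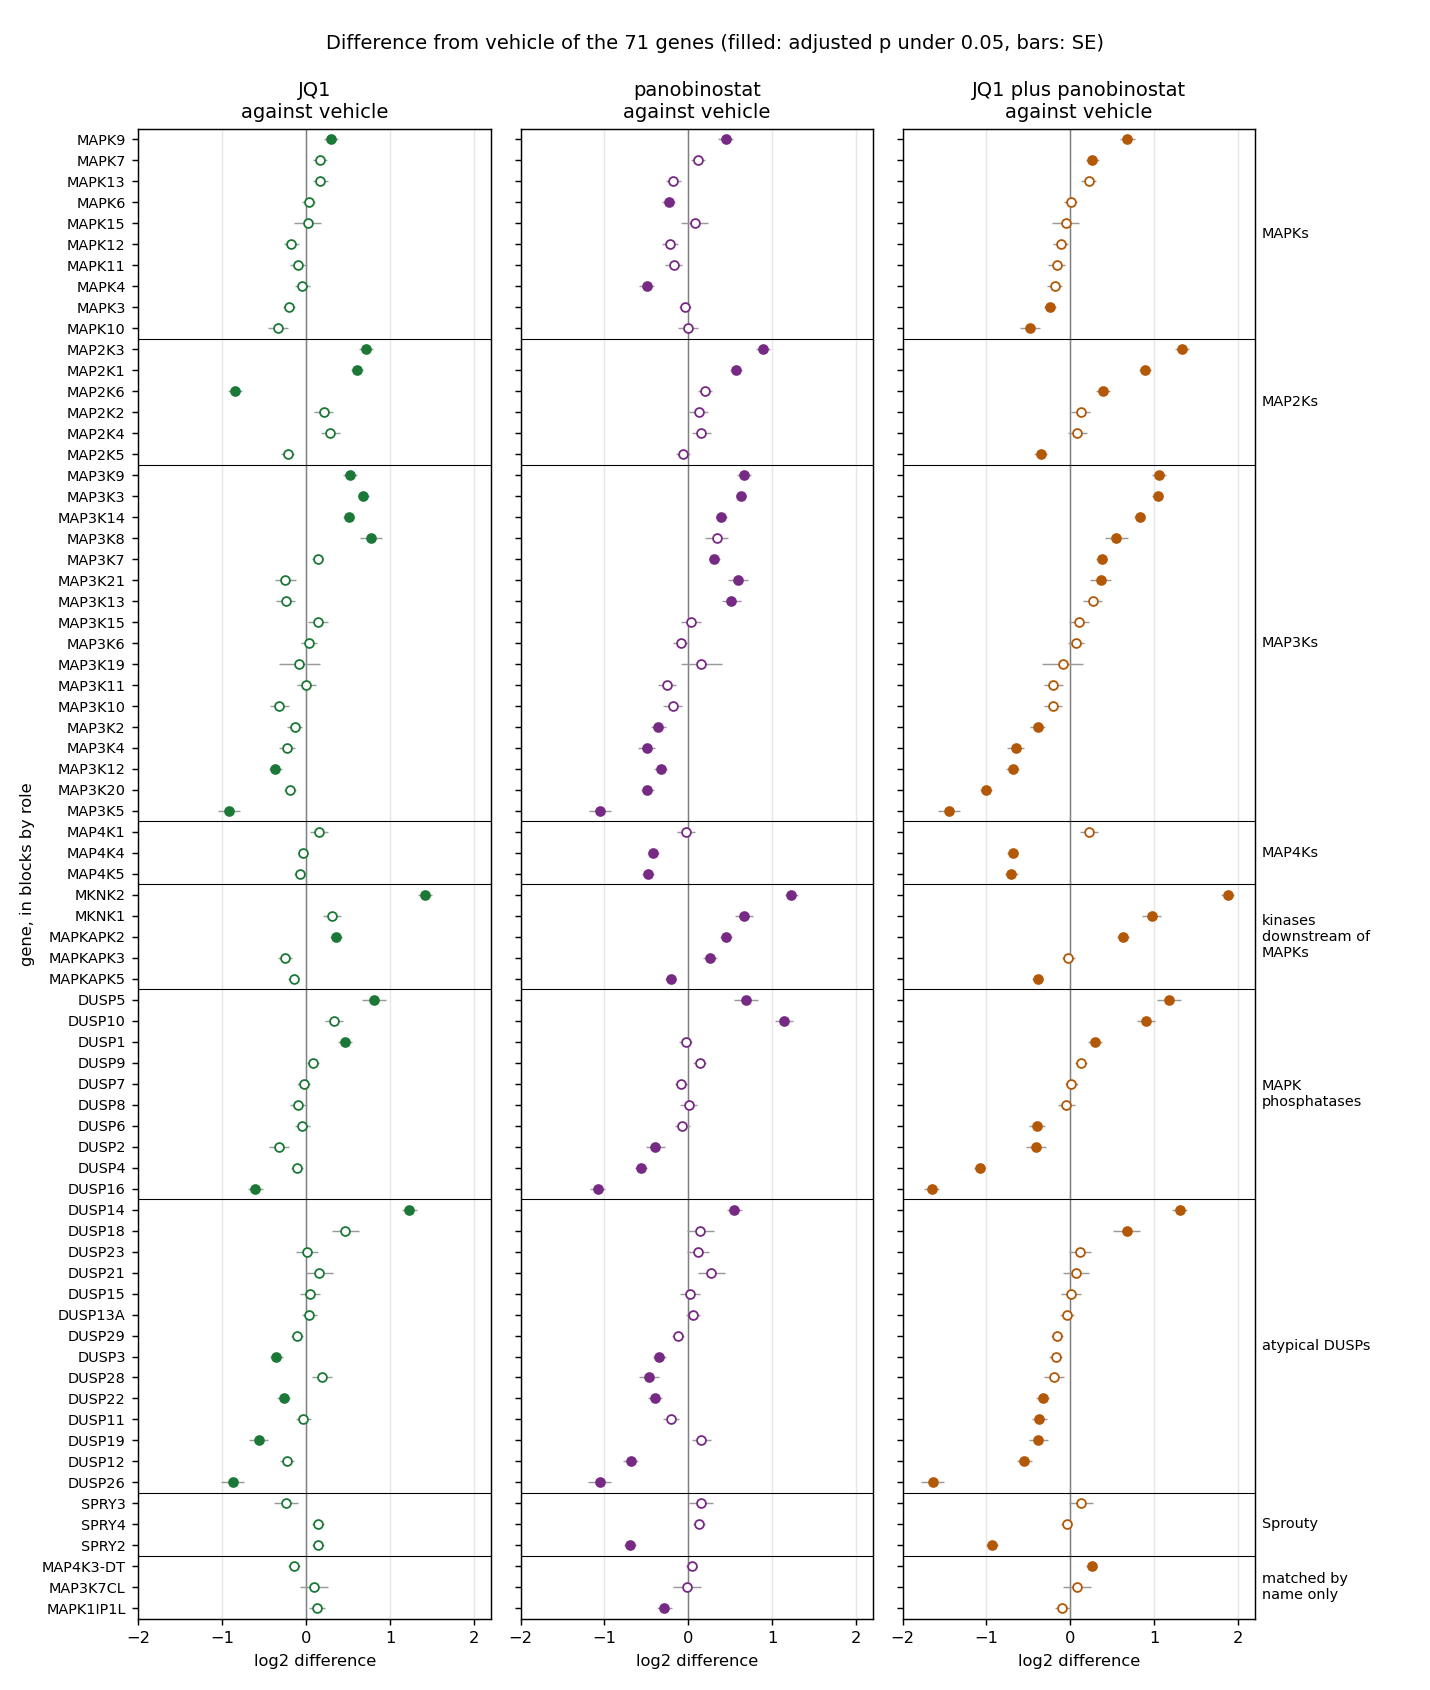
The log2 difference from vehicle of each of the 71 genes with JQ1 (left), panobinostat (middle) and both compounds (right), in blocks by role and ordered within a block by the difference with both. Filled points passed an adjusted p under 0.05 and bars are SE. Each block of kinases and phosphatases with more than 3 genes holds points on both sides of 0.

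Among the 10 MAPK genes 1 was called with JQ1 (10%, against 17.6% of all genes), 3 with panobinostat (30%, against 29.3%) and 4 with both compounds (40%, against 37.7%). MAPK9, which encodes the stress-activated kinase JNK2, had 8.76, 8.79 and 8.64 with JQ1, 8.79, 8.99 and 8.86 with panobinostat and 9.08, 9.17 and 9.09 with both, against 8.59, 8.31 and 8.40 with vehicle. All treated arrays lay above all vehicle arrays. The rise was 0.44 ± 0.08 with panobinostat (limma adjusted p = 0.00194) and 0.68 ± 0.08 with both (limma adjusted p = 4.95e-05). The rise of 0.30 ± 0.08 with JQ1 passed narrowly (limma adjusted p = 0.0324) and did not pass without JQ1 replicate 1 or 2 or vehicle replicate 2 or 3, at 0.28, 0.27, 0.23 and 0.28. MAPK10, the JNK gene expressed mainly in neurons, fell by 0.48 ± 0.12 with both compounds (limma adjusted p = 0.00585), beside differences of -0.34 with JQ1 and -0.00 with panobinostat that did not pass. MAPK10 is dim: its mean signal of 5.665 lay at percentile 18.9 of all genes tested, and that of ALB at percentile 16.9. How far MAPK10 stood above background is unknown.

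MAPK3, which encodes ERK1, had 8.54, 8.53 and 8.44 with both compounds, against 8.68, 8.77 and 8.79 with vehicle, without overlap. It fell by 0.24 ± 0.07 (limma adjusted p = 0.0154), a call that was lost without combination replicate 3 (-0.21), without vehicle replicate 3 (-0.22) and after quantile normalization (-0.19). MAPK4, which encodes the atypical kinase ERK4, had 6.56, 6.59 and 6.53 with JQ1, 6.17, 5.94 and 6.23 with panobinostat and 6.44, 6.46 and 6.37 with both, against 6.51, 6.55 and 6.76 with vehicle. The panobinostat arrays were the lowest of all 12. It fell by 0.49 ± 0.09 with panobinostat (limma adjusted p = 0.00128), while the differences with JQ1 (-0.05) and with both (-0.18) did not pass. MAPK4 too is dim, with a mean signal of 6.425 at percentile 33.3 of all genes tested. MAPK6, which encodes ERK3, the closest relative of ERK4, fell by 0.24 ± 0.08 with panobinostat (limma adjusted p = 0.0371). This call was lost without panobinostat replicate 1 (-0.21) or 3 (-0.23), vehicle replicate 1 (-0.16) or 2 (-0.26), JQ1 replicate 3 (-0.24) or combination replicate 2 (-0.24). It was also lost after quantile normalization (-0.19) and with array weights (-0.18). MAPK7, which encodes ERK5, rose by 0.26 ± 0.08 with both (limma adjusted p = 0.0236), and this call was lost without combination replicate 1 (0.22) or 3 (0.25) or vehicle replicate 1 (0.27) or 3 (0.19). The p38 genes MAPK11, MAPK12 and MAPK13 and the gene MAPK15 were not called against vehicle with any treatment, and their differences lay between -0.22 and 0.22.

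Of the 6 MAP2K genes, MAP2K1 and MAP2K3 were called higher with each compound and with both. Of the 6, 3 were called with JQ1, 2 with panobinostat and 4 with both, beside 17.6%, 29.3% and 37.7% of all genes. MAP2K1, which encodes the ERK activator MEK1, had 10.25, 10.28 and 10.13 with JQ1, 10.12, 10.20 and 10.20 with panobinostat and 10.46, 10.54 and 10.52 with both, against 9.71, 9.51 and 9.62 with vehicle. The single compounds overlapped each other, lay above vehicle and lay below the combination. The rises were 0.61 ± 0.07, 0.56 ± 0.07 and 0.89 ± 0.07 (limma adjusted p = 0.00015, 0.000125 and 1.55e-06). MAP2K5, which encodes MEK5, the activator of ERK5, fell by 0.35 ± 0.08 with both compounds (limma adjusted p = 0.0035), beside -0.22 with JQ1 and -0.06 with panobinostat, neither of which passed. MAP2K2 (MEK2) differed from vehicle by 0.12 to 0.20 and MAP2K4 (MKK4) by 0.08 to 0.29, and neither was called.

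The MAP3K genes moved in both directions. Of 17, 4 were higher and 2 lower with JQ1, 6 higher and 5 lower with panobinostat, and 6 higher and 5 lower with both. That is 35.3%, 64.7% and 64.7% of them, against 17.6%, 29.3% and 37.7% of all genes. MAP3K3, MAP3K9 and MAP3K14 were called higher, and MAP3K5 and MAP3K12 lower, in each of the 3 comparisons. MAP3K3, which encodes MEKK3, a kinase upstream of MEK5 and ERK5, had 9.83, 9.90 and 9.86 with JQ1, 9.80, 9.83 and 9.79 with panobinostat and 10.18, 10.20 and 10.27 with both, against 9.25, 9.11 and 9.18 with vehicle. The vehicle arrays were the lowest and the combination arrays the highest, with no overlap of either with any other group. Its rises were 0.68 ± 0.06, 0.63 ± 0.06 and 1.04 ± 0.06 (limma adjusted p = 3.43e-05, 2.37e-05 and 1.84e-07).

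MAP3K9, the mixed-lineage kinase MLK1 that feeds JNK, had 7.87, 7.89 and 7.85 with JQ1, 7.99, 7.97 and 8.07 with panobinostat and 8.31, 8.47 and 8.45 with both, against 7.51, 7.19 and 7.36 with vehicle, and no 2 groups overlapped. Its rises were 0.52 ± 0.08, 0.66 ± 0.08 and 1.06 ± 0.08 (limma adjusted p = 0.00129, 0.000125 and 1.48e-06). MAP3K14, which encodes the NF-κB-inducing kinase NIK, had 7.76, 7.66 and 7.74 with JQ1, 7.55, 7.62 and 7.66 with panobinostat and 8.02, 8.06 and 8.04 with both, against 7.25, 7.27 and 7.13 with vehicle. Here too no groups overlapped, and the rises were 0.51 ± 0.06, 0.39 ± 0.06 and 0.83 ± 0.06 (limma adjusted p = 0.000282, 0.000718 and 1.40e-06). MAP3K8, which encodes TPL2, an activator of MEK1 in inflammatory signalling, had 6.47, 6.81 and 6.61 with JQ1, 6.18, 6.30 and 6.11 with panobinostat and 6.37, 6.24 and 6.62 with both, against 6.13, 5.66 and 5.78 with vehicle. The JQ1 arrays and those with both compounds lay above vehicle and the panobinostat arrays overlapped vehicle. It rose by 0.77 ± 0.14 with JQ1 and 0.55 ± 0.14 with both (limma adjusted p = 0.00223 and 0.00661), and the difference with panobinostat was 0.34 ± 0.14 (limma adjusted p = 0.0856). MAP3K8 is dim, with a mean signal of 6.274 at percentile 30.2 of all genes tested.

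MAP3K5, which encodes ASK1, the oxidative-stress kinase upstream of JNK and p38, had 7.46, 7.26 and 7.48 with JQ1, 7.31, 7.14 and 7.36 with panobinostat and 6.61, 6.85 and 7.16 with both, against 8.48, 8.24 and 8.25 with vehicle. Every treated array lay below every vehicle array. The differences from vehicle were -0.93 ± 0.13, -1.05 ± 0.13 and -1.45 ± 0.13 (limma adjusted p = 0.000561, 0.000116 and 4.10e-06). MAP3K12, which encodes DLK, a neuronal kinase of the axon injury response, had 7.42, 7.68 and 7.57 with JQ1, 7.65, 7.52 and 7.62 with panobinostat and 7.31, 7.26 and 7.14 with both, against 7.94, 7.92 and 7.92 with vehicle. The combination arrays were the lowest and the vehicle arrays the highest. The differences were -0.37 ± 0.08, -0.33 ± 0.08 and -0.69 ± 0.08 (limma adjusted p = 0.00679, 0.00755 and 2.69e-05).

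Other MAP3K genes were called with panobinostat and not with JQ1. MAP3K13, which encodes LZK, the closest relative of DLK, had 8.57, 8.59 and 8.48 with JQ1, 9.13, 9.32 and 9.45 with panobinostat and 8.97, 9.01 and 9.19 with both, against 8.99, 8.59 and 8.79 with vehicle. The panobinostat arrays lay above vehicle, whereas the JQ1 and combination arrays each overlapped it. It rose by 0.51 ± 0.11 with panobinostat (limma adjusted p = 0.00461), beside -0.24 ± 0.11 with JQ1 and 0.26 ± 0.11 with both (limma adjusted p = 0.175 and 0.0874). MAP3K21, the mixed-lineage kinase MLK4, had 7.62, 7.35 and 7.30 with JQ1, 8.10, 8.25 and 8.44 with panobinostat and 7.88, 8.07 and 8.16 with both, against 7.87, 7.62 and 7.53 with vehicle. The panobinostat arrays and those with both compounds lay above vehicle. It rose by 0.59 ± 0.12 with panobinostat (limma adjusted p = 0.00343). Its rise of 0.36 ± 0.12 with both (limma adjusted p = 0.0361) was lost without combination replicate 2 (0.35) or 3 (0.30) or vehicle replicate 2 (0.34) or 3 (0.29).

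MAP3K20, which encodes ZAK, a kinase that responds to stalled ribosomes, had 9.33, 9.48 and 9.35 with JQ1, 9.12, 9.13 and 9.03 with panobinostat and 8.54, 8.52 and 8.66 with both, against 9.64, 9.62 and 9.48 with vehicle. The JQ1 arrays overlapped vehicle, the panobinostat arrays lay below both, and the combination arrays lay below all others. It fell by 0.49 ± 0.07 with panobinostat and by 1.01 ± 0.07 with both (limma adjusted p = 0.000427 and 9.21e-07). MAP3K4, which encodes MEKK4, had 8.46, 8.38 and 8.24 with JQ1, 8.13, 8.13 and 8.02 with panobinostat and 7.72, 8.01 and 8.08 with both, against 8.70, 8.57 and 8.50 with vehicle. The panobinostat and combination arrays overlapped each other and lay below the JQ1 and vehicle arrays. It fell by 0.50 ± 0.10 and 0.65 ± 0.10 (limma adjusted p = 0.00274 and 0.000247). MAP3K2 (MEKK2) also fell in both of these comparisons (-0.36 and -0.39), and MAP3K7, which encodes TAK1, rose (0.31 and 0.37). MAP3K6, MAP3K10, MAP3K11, MAP3K15 and MAP3K19 were not called against vehicle.

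The MAP4K genes MAP4K4 and MAP4K5, which encode kinases upstream of JNK, were lower with panobinostat and with both compounds, and MAP4K1 was not called. With 3 genes the share called, 0%, 66.7% and 66.7% beside 17.6%, 29.3% and 37.7% of all genes, rests on these 2. MAP4K4 had 10.31, 10.35 and 10.21 with JQ1, 9.87, 9.98 and 9.89 with panobinostat and 9.58, 9.68 and 9.67 with both, against 10.33, 10.33 and 10.32 with vehicle. MAP4K5 had 10.61, 10.57 and 10.54 with JQ1, 10.03, 10.28 and 10.20 with panobinostat and 10.01, 9.93 and 9.90 with both, against 10.67, 10.68 and 10.59 with vehicle. For both genes the JQ1 arrays overlapped the vehicle arrays while the panobinostat and combination arrays lay below. MAP4K4 fell by 0.42 ± 0.06 and 0.69 ± 0.06 (limma adjusted p = 0.000474 and 5.40e-06), and MAP4K5 by 0.48 ± 0.07 and 0.70 ± 0.07 (limma adjusted p = 0.000426 and 1.21e-05).

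**Figure D3:**
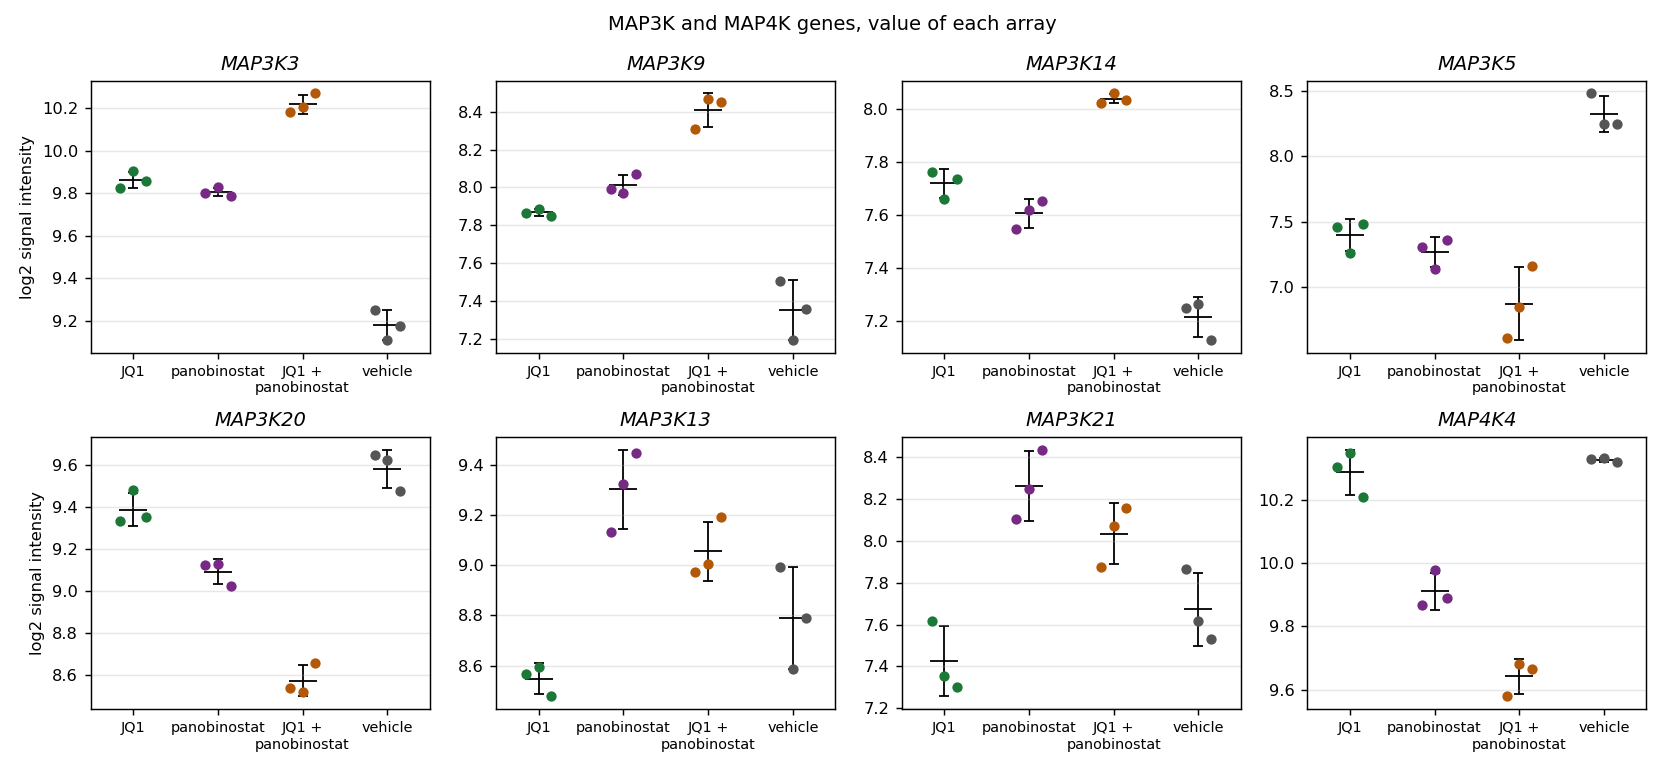
The log2 signal intensity of 7 MAP3K genes and MAP4K4 on each array, by group, with 1 point per array, the mean as a horizontal bar and the SD of 3 arrays as error bars. MAP3K3, MAP3K9 and MAP3K14 lie lowest with vehicle, MAP3K5 lies highest with vehicle, and MAP4K4 lies at 10.21 to 10.35 with JQ1 and at 10.32 to 10.33 with vehicle.

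Of the 5 kinases downstream of MAPKs, 2 were higher with JQ1, 4 higher and 1 lower with panobinostat, and 3 higher and 1 lower with both. These are 40%, 100% and 80% of the 5, against 17.6%, 29.3% and 37.7% of all genes. MKNK1, which encodes MNK1, the relative of MNK2, had 7.20, 6.91 and 7.25 with JQ1, 7.55, 7.40 and 7.49 with panobinostat and 7.62, 7.80 and 7.92 with both, against 6.86, 6.66 and 6.92 with vehicle. The JQ1 arrays overlapped vehicle, and the panobinostat and combination arrays lay above it. It rose by 0.67 ± 0.11 with panobinostat and 0.97 ± 0.11 with both (limma adjusted p = 0.000721 and 2.41e-05), and the difference with JQ1 was 0.31 ± 0.11 (limma adjusted p = 0.0759). MAPKAPK2, which encodes the p38 target kinase MK2, a regulator of the stability of inflammatory mRNAs, had 9.55, 9.60 and 9.62 with JQ1, 9.77, 9.60 and 9.67 with panobinostat and 9.92, 9.81 and 9.84 with both, against 9.16, 9.23 and 9.32 with vehicle. All treated arrays lay above all vehicle arrays, with rises of 0.36 ± 0.07, 0.45 ± 0.07 and 0.63 ± 0.07 (limma adjusted p = 0.004, 0.000475 and 2.04e-05).

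MAPKAPK3, which encodes MK3, the close relative of MK2, rose by 0.26 ± 0.08 with panobinostat (limma adjusted p = 0.0321), and this was lost without panobinostat replicate 1 (0.18) or vehicle replicate 1 (0.26), 2 (0.27) or 3 (0.24). Its differences with JQ1 (-0.25) and both (-0.02) did not pass. MAPKAPK5, which encodes the kinase that binds ERK3 and ERK4, fell by 0.39 ± 0.07 with both (limma adjusted p = 0.00047). Its fall of 0.21 ± 0.07 with panobinostat (limma adjusted p = 0.028) was lost without panobinostat replicate 2 (-0.22) or 3 (-0.18), without vehicle replicate 2 (-0.18) and after quantile normalization (-0.15).

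Grouped by the MAPK they serve, 4 measured genes belong to the ERK arm (MAP3K8, MAP2K1, MAP2K2 and MAPK3), 7 to the p38 arm (MAP2K3, MAP2K6, MAPK11, MAPK12, MAPK13, MAPKAPK2 and MAPKAPK3) and 3 to the JNK arm (MAP2K4, MAPK9 and MAPK10). In the ERK arm 2 genes were higher with JQ1, 1 higher with panobinostat, and 2 higher and 1 lower with both, with median differences of 0.41, 0.23 and 0.34. In the p38 arm 2 were higher and 1 lower with JQ1, 3 higher with panobinostat, and 3 higher with both, with medians of -0.10, 0.20 and 0.22. In the JNK arm 1 was higher with JQ1, 1 higher with panobinostat, and 1 higher and 1 lower with both, with medians of 0.29, 0.16 and 0.08. The medians over all genes were 0.01, 0.03 and 0.02, and 17.6%, 29.3% and 37.7% of all genes were called. With 3 to 7 genes in an arm, nothing is read from the counts.

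The 10 MAPK phosphatase genes were called in both directions: 2 higher and 1 lower with JQ1, 2 higher and 3 lower with panobinostat, and 3 higher and 4 lower with both. The shares called were 30%, 50% and 70%, beside 17.6%, 29.3% and 37.7% of all genes. DUSP16, which encodes MKP-7, a phosphatase of JNK and p38, had 9.35, 9.31 and 9.18 with JQ1, 8.91, 8.76 and 8.75 with panobinostat and 8.06, 8.34 and 8.31 with both, against 9.95, 9.89 and 9.82 with vehicle. No groups overlapped, with vehicle highest, then JQ1, then panobinostat, and the combination lowest. The differences from vehicle were -0.61 ± 0.09 with JQ1, -1.08 ± 0.09 with panobinostat and -1.65 ± 0.09 with both (limma adjusted p = 0.000705, 6.37e-06 and 9.78e-08). With both compounds this fall and that of DUSP26 (-1.64 ± 0.14) were the lowest differences among the 71 genes and lay within 1 SE of each other. The DUSP16 signal was 3.14-fold lower than with vehicle on the linear scale.

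DUSP10, which encodes MKP-5, another phosphatase of JNK and p38, went the other way. It had 8.98, 8.96 and 9.04 with JQ1, 9.69, 9.83 and 9.91 with panobinostat and 9.48, 9.52 and 9.69 with both, against 8.84, 8.41 and 8.74 with vehicle. The panobinostat and combination arrays lay above the JQ1 arrays, which lay above vehicle. It rose by 1.14 ± 0.11 with panobinostat and 0.90 ± 0.11 with both (limma adjusted p = 1.75e-05 and 3.81e-05), and the difference with JQ1, 0.33 ± 0.11, did not pass (limma adjusted p = 0.0568).

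DUSP5, which encodes the nuclear ERK phosphatase, had 7.67, 7.56 and 7.62 with JQ1, 7.49, 7.64 and 7.35 with panobinostat and 7.74, 8.32 and 7.89 with both, against 7.00, 6.83 and 6.58 with vehicle. All treated arrays lay above all vehicle arrays, and the single compounds overlapped. The rises were 0.81 ± 0.14, 0.69 ± 0.14 and 1.18 ± 0.14 (limma adjusted p = 0.0024, 0.00348 and 4.37e-05). A second, dimmer probe set of DUSP5 differed from vehicle by 0.05, 0.03 and 0.05 and was not called (limma adjusted p over all probe sets 0.911, 0.920 and 0.877), so the rise rests on 1 probe set.

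DUSP4, which encodes MKP-2, a nuclear phosphatase of ERK and JNK, had 9.64, 9.61 and 9.61 with JQ1, 9.23, 9.14 and 9.12 with panobinostat and 8.53, 8.74 and 8.68 with both, against 9.76, 9.74 and 9.69 with vehicle. No groups overlapped, although the JQ1 arrays lay just below vehicle and the difference of -0.11 ± 0.07 did not pass (limma adjusted p = 0.313). It fell by 0.57 ± 0.07 with panobinostat and 1.08 ± 0.07 with both (limma adjusted p = 9.54e-05 and 2.97e-07). DUSP6, which encodes the cytoplasmic ERK phosphatase MKP-3, had 9.18, 9.37 and 9.28 with JQ1, 9.22, 9.33 and 9.20 with panobinostat and 8.88, 9.08 and 8.82 with both, against 9.44, 9.36 and 9.18 with vehicle. The single compounds overlapped vehicle and the combination lay below all of them. It fell by 0.40 ± 0.09 with both (limma adjusted p = 0.00459), beside -0.05 with JQ1 and -0.07 with panobinostat.

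DUSP1, which encodes the stress-induced phosphatase MKP-1, had 10.07, 10.00 and 10.00 with JQ1, 9.47, 9.48 and 9.66 with panobinostat and 9.85, 9.74 and 10.01 with both, against 9.58, 9.52 and 9.60 with vehicle. The JQ1 and combination arrays lay above vehicle and the panobinostat arrays overlapped it. It rose by 0.46 ± 0.08 with JQ1 (limma adjusted p = 0.0024), and its rise of 0.30 ± 0.08 with both (limma adjusted p = 0.0123) was lost without combination replicate 3 (0.23). DUSP2, known as PAC-1 in lymphocytes, fell by 0.39 ± 0.12 with panobinostat and 0.41 ± 0.12 with both (limma adjusted p = 0.0243 and 0.0155). The fall with both was lost without combination replicate 1 (-0.27), and that with panobinostat without panobinostat replicate 2 (-0.39) or 3 (-0.31) or vehicle replicate 1 (-0.38) or 2 (-0.38). DUSP7, DUSP8 and DUSP9 were not called against vehicle.

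Of the 14 atypical DUSPs, which are small phosphatases without the kinase-binding part of the MAPK phosphatases, 1 was higher and 4 lower with JQ1, 1 higher and 5 lower with panobinostat, and 2 higher and 5 lower with both. The lower calls make up 28.6%, 35.7% and 35.7% of the list, against 9.47%, 14.8% and 19.5% of all genes, and the higher calls 7.14%, 7.14% and 14.3%, against 8.18%, 14.5% and 18.2%. DUSP14 had 9.75, 9.69 and 9.87 with JQ1, 9.14, 8.94 and 9.20 with panobinostat and 9.76, 9.94 and 9.85 with both, against 8.65, 8.46 and 8.52 with vehicle. The JQ1 and combination arrays overlapped each other and lay above the panobinostat arrays, which lay above vehicle. The rises were 1.23 ± 0.09, 0.55 ± 0.09 and 1.30 ± 0.09 (limma adjusted p = 7.83e-06, 0.000709 and 5.47e-07). DUSP18 had 8.19, 8.12 and 8.02 with JQ1, 7.52, 7.95 and 7.90 with panobinostat and 8.14, 8.27 and 8.54 with both, against 7.96, 7.34 and 7.64 with vehicle. The combination arrays overlapped the JQ1 arrays and lay above the panobinostat and vehicle arrays. It rose by 0.67 ± 0.16 with both (limma adjusted p = 0.00541).

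DUSP26, which is expressed in neuroendocrine tissue and has been described in neuroblastoma as a phosphatase of p53, had 9.94, 10.01 and 10.13 with JQ1, 10.08, 9.59 and 9.86 with panobinostat and 9.38, 9.04 and 9.36 with both, against 10.73, 10.90 and 11.08 with vehicle. The single compounds overlapped each other, lay below vehicle and lay above the combination. The differences from vehicle were -0.88 ± 0.14, -1.06 ± 0.14 and -1.64 ± 0.14 (limma adjusted p = 0.00102, 0.000143 and 2.12e-06). DUSP12 had 9.25, 9.08 and 9.20 with JQ1, 8.56, 8.81 and 8.79 with panobinostat and 8.81, 8.89 and 8.87 with both, against 9.55, 9.32 and 9.35 with vehicle. The panobinostat arrays were the lowest, their highest value just under the lowest with both compounds. It fell by 0.69 ± 0.09 with panobinostat and 0.55 ± 0.09 with both (limma adjusted p = 0.000142 and 0.000357), and the difference with JQ1 was -0.23 (limma adjusted p = 0.101).

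DUSP19, a phosphatase known to act on the JNK pathway, had 7.71, 7.68 and 7.57 with JQ1, 8.31, 8.39 and 8.43 with panobinostat and 7.65, 7.86 and 8.02 with both, against 8.46, 8.04 and 8.17 with vehicle. The JQ1 and combination arrays lay below vehicle, and the panobinostat arrays overlapped it. It fell by 0.57 ± 0.11 with JQ1 (limma adjusted p = 0.00505), and its fall of 0.38 ± 0.11 with both (limma adjusted p = 0.0194) did not hold without replicate 1 of the combination (-0.28) or of vehicle (-0.27). DUSP3, which encodes VHR, had 7.88, 7.91 and 7.93 with JQ1, 7.90, 7.87 and 7.98 with panobinostat and 8.04, 8.09 and 8.14 with both, against 8.40, 8.11 and 8.28 with vehicle. It was lower than vehicle on all single-compound arrays, by -0.36 ± 0.08 and -0.35 ± 0.08 (limma adjusted p = 0.00759 and 0.00531), while the combination overlapped vehicle at -0.17 ± 0.08 (limma adjusted p = 0.107).

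DUSP22, which encodes JSP-1, had 7.73, 7.52 and 7.69 with JQ1, 7.56, 7.50 and 7.49 with panobinostat and 7.57, 7.68 and 7.51 with both, against 7.86, 8.02 and 7.86 with vehicle. All treated arrays lay below all vehicle arrays. It fell by 0.40 ± 0.08 with panobinostat and 0.33 ± 0.08 with both (limma adjusted p = 0.00251 and 0.00572). Its difference of -0.27 ± 0.08 with JQ1 (limma adjusted p = 0.0367) was lost without JQ1 replicate 2 (-0.20) or 3 (-0.29), without any 1 vehicle array (-0.22 to -0.29) and after quantile normalization (-0.24). DUSP28 had 7.26, 7.27 and 7.32 with JQ1, 6.39, 6.76 and 6.71 with panobinostat and 6.89, 6.85 and 6.93 with both, against 7.36, 6.89 and 7.03 with vehicle. The panobinostat arrays lay below vehicle and the JQ1 and combination arrays overlapped it. It fell by 0.47 ± 0.12 with panobinostat (limma adjusted p = 0.0111). DUSP11, an RNA phosphatase, fell by 0.37 ± 0.09 with both (limma adjusted p = 0.00764). DUSP13A, DUSP15, DUSP21, DUSP23 and DUSP29 were not called.

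SPRY2, a Sprouty inhibitor of growth-factor signalling to ERK, had 8.36, 8.29 and 8.31 with JQ1, 7.46, 7.53 and 7.49 with panobinostat and 7.20, 7.16 and 7.39 with both, against 8.20, 8.23 and 8.12 with vehicle. The JQ1 arrays were the highest, the panobinostat arrays lay below vehicle and the combination arrays lay lowest. It fell by 0.69 ± 0.07 with panobinostat and 0.93 ± 0.07 with both (limma adjusted p = 3.33e-05 and 1.24e-06), while the difference with JQ1 was 0.13 ± 0.07 (limma adjusted p = 0.249). SPRY4 and SPRY3 were not called against vehicle in any comparison. Of the 7 measured genes in the list of Sprouty inhibitors and of phosphatases that act on ERK (DUSP4, which also acts on JNK, DUSP5, DUSP6, DUSP7, DUSP9, SPRY2 and SPRY4), 1 was higher with JQ1, 1 higher and 2 lower with panobinostat, and 1 higher and 3 lower with both, with medians of 0.08, -0.07 and -0.05. The shares called, 14.3%, 42.9% and 57.1% of 7 genes, stand beside 17.6%, 29.3% and 37.7% of all genes. The higher one was DUSP5 each time, and the lower ones were DUSP4 and SPRY2, joined by DUSP6 with both compounds.

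Of the genes that share only the name, MAPK1IP1L fell by 0.29 ± 0.09 with panobinostat (limma adjusted p = 0.0316). This call was lost without panobinostat replicate 1 (-0.20) or 3 (-0.31) or vehicle replicate 1 (-0.22), and with array weights (-0.22). MAP4K3-DT rose by 0.26 ± 0.07 with both compounds (limma adjusted p = 0.00965), and MAP3K7CL was not called.

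**Figure D4:**
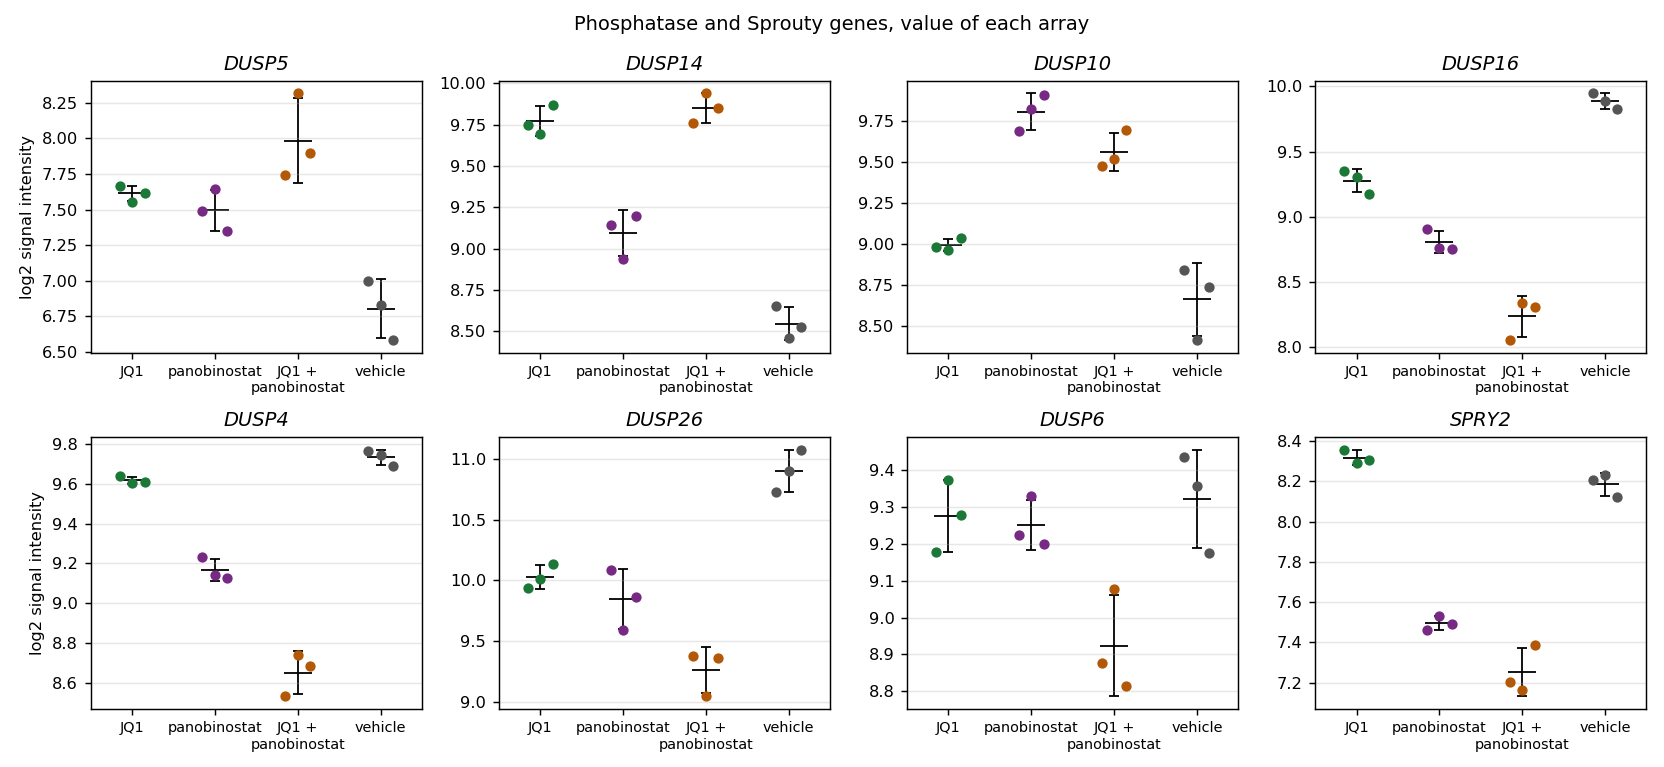
The log2 signal intensity of 7 phosphatase genes and SPRY2 on each array, by group, with 1 point per array, the mean as a horizontal bar and the SD of 3 arrays as error bars. DUSP5, DUSP14 and DUSP10 lie lowest with vehicle, DUSP16, DUSP4 and DUSP26 lie highest with vehicle, and the DUSP6 arrays with both compounds, 8.82 to 9.08, lie below the others.

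The direct comparison of the combination with JQ1 shows what panobinostat added. 30 of 71 members were called, 15 higher and 15 lower, against 25.6% of all genes (11.7% higher and 13.9% lower). Without the dim genes 35 of 60 were called (58.3%), against 43.8%. MAP2K6 was the largest of the higher ones, followed by MKNK1 (0.66 ± 0.11), MAP2K3 (0.63 ± 0.08) and MAP3K21 (0.61 ± 0.12), with limma adjusted p of 0.000989, 0.000224 and 0.00336. The largest falls were in SPRY2 (-1.07 ± 0.07), DUSP16 (-1.04 ± 0.09), DUSP4 (-0.97 ± 0.07) and MAP3K20 (-0.81 ± 0.07), with limma adjusted p of 2.08e-06, 1.10e-05, 3.07e-06 and 1.87e-05. In all of these the arrays of the combination and of JQ1 did not overlap.

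The comparison of the combination with panobinostat shows what JQ1 added. 24 of 71 members were called, 12 higher and 12 lower, against 14.7% of all genes (6.13% higher and 8.55% lower). Without the dim genes 30 of 60 were called (50.0%), against 29.3%. The count was 14 when all probe sets were tested and 14 when only the 6 arrays compared were fitted. After median centring of each array the split was 15 higher and 9 lower, and after quantile normalization 17 higher and 11 lower. The largest rises were in DUSP14 (0.76 ± 0.09) and MKNK2 (0.65 ± 0.08), with limma adjusted p of 0.000302 and 0.000333, followed by DUSP18 (0.53 ± 0.16) and DUSP5 (0.49 ± 0.14). The calls of DUSP18 and DUSP5 (limma adjusted p = 0.0478 and 0.0421) were each lost when 1 array was left out. For DUSP18 this held for every JQ1, panobinostat and combination array (0.39 to 0.61) and for vehicle replicate 3 (0.53). For DUSP5 it held for every JQ1 array (0.49), panobinostat replicates 1 (0.49) and 3 (0.42), combination replicates 2 (0.32) and 3 (0.53) and vehicle replicate 2 (0.49). The largest falls were in DUSP26 (-0.58 ± 0.14), DUSP16 (-0.57 ± 0.09), DUSP19 (-0.54 ± 0.11) and MAP3K20 (-0.52 ± 0.07), with limma adjusted p of 0.0141, 0.00153, 0.00895 and 0.000907. The fall of DUSP26 was lost without panobinostat replicate 1 (-0.47) or combination replicate 2 (-0.48).

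Panobinostat and JQ1, which differ in target and dose, were also set against each other. 22 of 71 members were called, 7 higher with panobinostat and 15 lower, against 23.3% of all genes (11.6% in each direction), and without the dim genes 23 of 60 (38.3%) against 40%. As shares of the 71 members these are 31.0% called, 9.86% higher and 21.1% lower. MAP2K6 (1.05 ± 0.08), MAP3K21 (0.84 ± 0.12), DUSP10 (0.81 ± 0.11) and MAP3K13 (0.76 ± 0.11) were the highest with panobinostat relative to JQ1 (limma adjusted p = 8.70e-06, 0.000526, 0.000282 and 0.000554). SPRY2 (-0.82 ± 0.07), DUSP14 (-0.68 ± 0.09), DUSP28 (-0.66 ± 0.12) and DUSP1 (-0.49 ± 0.08) were the lowest (limma adjusted p = 2.18e-05, 0.000276, 0.00204 and 0.00121). The difference between the compounds also passed for DUSP19 (0.72), DUSP12 (-0.46), DUSP4 (-0.45), MAP4K5 (-0.40) and MAP4K4 (-0.38), with limma adjusted p of 0.000876, 0.00303, 0.000649, 0.00199 and 0.00142. For MAP3K20 it was -0.30 ± 0.07 (limma adjusted p = 0.0133), a call lost without JQ1 replicate 2 (-0.25) or panobinostat replicate 3 (-0.26). For MAP3K4 it was -0.27 ± 0.10 and did not pass (limma adjusted p = 0.079). MKNK2 differed between the compounds by -0.19 ± 0.08 (limma adjusted p = 0.112, unadjusted 95% interval -0.36 to -0.02), and MAP2K3 by 0.18 ± 0.08 (limma adjusted p = 0.15, 95% interval -0.00 to 0.36).

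Whether the combination departed from the sum of the single changes was tested as an interaction, the combination minus JQ1 minus panobinostat plus vehicle. 2 of 71 members were called, 1 in each direction, against 0.759% of all genes (0.309% higher and 0.450% lower). These 2, MAP2K6 and MKNK2, were named as the marker genes of this gene group before the tests. Members were chosen with earlier results of these data known. The share is therefore not read as a result about the members. Without the dim genes 5 of 60 were called (8.33%), against 2.90%. MAP2K6 changed by 0.39 with both, against a sum of -0.65 for the single compounds, a departure of 1.04 ± 0.11 (limma adjusted p = 0.00694). JQ1 alone lowered it, whereas the difference made by JQ1 on top of panobinostat had a 95% interval of 0.01 to 0.37. MKNK2 rose by 1.88 with both, against a sum of 2.64, a departure of -0.77 ± 0.11 (limma adjusted p = 0.0148). The combination thus exceeded each single compound for MKNK2 and was less than their sum on the log2 scale. Additivity on the linear scale was not tested. The next member, DUSP3, departed by 0.53 ± 0.11 and did not pass as reported (limma adjusted p = 0.0556). It passed after median centring or quantile normalization, without dim genes, with trend and robust eBayes, with array weights and without vehicle replicate 2. The departures there were 0.53 to 0.61, with limma adjusted p of 0.0151 to 0.0445. DUSP16 had a combined change of -1.65 beside a sum of -1.69, with a departure of 0.04 ± 0.13 (limma adjusted p = 0.939, 95% interval -0.24 to 0.31).

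**Figure D5:**
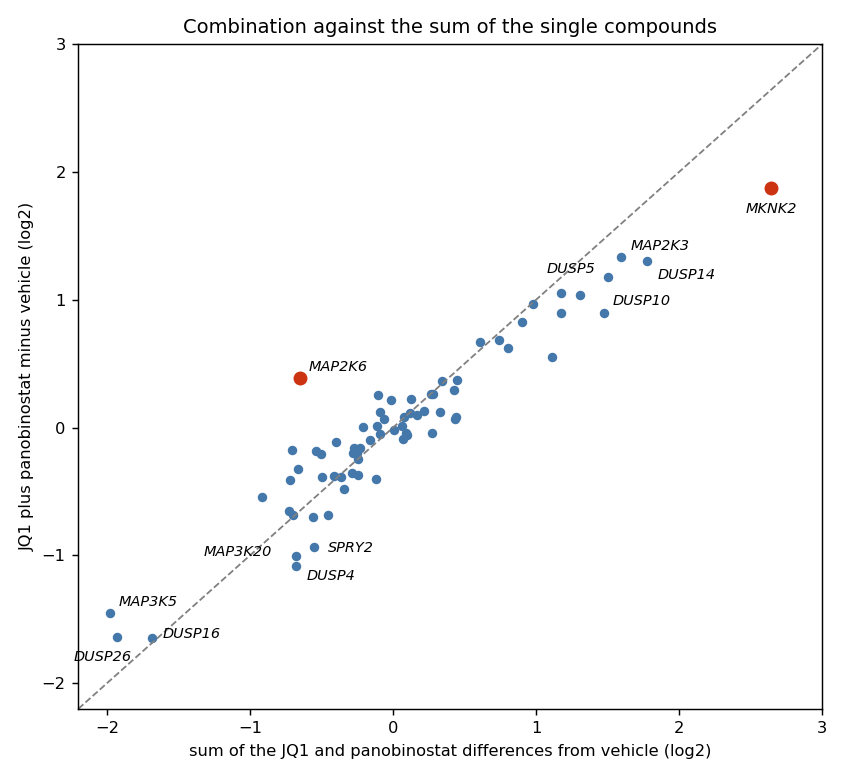
The change with both compounds (vertical axis, log2 against vehicle) beside the sum of the changes with JQ1 and with panobinostat (horizontal axis, log2) for each of the 71 genes, with the dashed line where they are equal. Both axes share the vehicle arrays. The 2 genes with a called departure are in red, MAP2K6 above the line and MKNK2 below it.

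Other genes of the pathway, 46 measured genes from a list of 71 that holds RAS regulators, RAF kinases, scaffolds and transcription factors that MAPKs act on, give the setting of these changes. 12 were higher and 3 lower with JQ1, 14 higher and 11 lower with panobinostat, and 18 higher and 11 lower with both, with medians of 0.07, 0.04 and 0.05. The shares called were 32.6%, 54.3% and 63.0%, against 17.6%, 29.3% and 37.7% of all genes. EGR1, an immediate early transcription factor gene downstream of ERK, had 10.64, 10.63 and 10.66 with JQ1, 10.52, 10.50 and 10.48 with panobinostat and 10.85, 11.33 and 11.16 with both, against 9.62, 9.23 and 9.36 with vehicle. All treated arrays lay above all vehicle arrays. It rose by 1.24 ± 0.12, 1.10 ± 0.12 and 1.71 ± 0.12 (limma adjusted p = 5.43e-05, 4.64e-05 and 6.10e-07). A second EGR1 probe set was called with both compounds (1.12, limma adjusted p over all probe sets 0.0109) and not with JQ1 (0.79) or panobinostat (0.61). FOS rose by 1.34 ± 0.15 with both compounds (limma adjusted p = 2.18e-05), although a second FOS probe set differed by 0.17 and was not called (limma adjusted p over all probe sets 0.518).

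IER3, another immediate early gene, rose by 0.64 ± 0.10 with JQ1, 0.73 ± 0.10 with panobinostat and 1.11 ± 0.10 with both (limma adjusted p = 0.00117, 0.000239 and 4.54e-06). It has many probe sets, and some of them differed from vehicle by only -0.02, 0.11 and 0.04 and were not called (limma adjusted p over all probe sets 0.951, 0.452 and 0.810). GAB2, which encodes an adaptor that carries receptor signals to RAS, fell by 0.61 with JQ1, 0.58 with panobinostat and 1.19 with both (limma adjusted p = 0.00157, 0.00113 and 2.78e-06). ETV1, an ETS factor gene, fell by 0.43 with JQ1 and 0.95 with both (limma adjusted p = 0.0034 and 2.93e-06). ARAF, which encodes a RAF kinase, and SOS2, which encodes a RAS exchange factor, fell with panobinostat (-0.79 and -0.60) and with both (-0.63 and -0.60), with limma adjusted p of 2.13e-05 and 0.000611, and 4.40e-05 and 0.000329. At the level of RAS and RAF there were rises too. RRAS, which encodes a RAS-related GTPase, and SHOC2, which encodes a scaffold that promotes RAF activation, rose with panobinostat (0.87 and 0.80) and with both (0.70 and 0.84), with limma adjusted p of 0.000124 and 4.88e-06, and 0.00027 and 1.11e-06. Of these, SHOC2 also rose with JQ1 (0.35, limma adjusted p = 0.00262).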

How the data were processed

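Per the labels' protocols, total RNA was hybridised to 1 array per sample, 3 arrays in each of 4 groups. The authors deposited 1 log2 signal intensity per probe set (transcript cluster) and array, 53617 by 12. The log base is not stated and was taken as 2 from the range of values. The submitters' processing notes name MAS5 and affy, with no role or version. How background was corrected and arrays normalized, and the build, is not given in the sources used here.

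GEO's platform annotation, matched to RefSeq by Entrez identifier, named 16098 probe sets with 1 symbol each and left 37519 unnamed. The probe set with the highest mean stood for each symbol, which gave 14884 genes, and no filter or renormalization was applied. Tests used limma 3.58.1 in R 4.3.3 (lmFit and eBayes, 1 coefficient per group, 8 residual degrees of freedom), checked on simulated data. 6 comparisons between groups and the interaction were tested. The rule for values of every array was MKNK2, MAP2K6 and the called members with the largest changes, up to 8 per direction against vehicle and 4 otherwise. Other members with all their values (MAPK9, MAPK3, MAP2K1, MAP3K14, MAPKAPK2 and DUSP6 among them) were added after their values were seen. Members and gene lists were chosen with earlier results of these data known. RefSeq promoters were found for 62 of the 71 members.

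Replicate numbers did not pair the arrays across all 4 groups. Deviations from the group means correlated at -0.69 to 0.24 over 18 same-numbered pairs, with a median of -0.05. Over 36 other pairs they correlated at -0.41 to 0.49. Same-numbered pairs of vehicle with JQ1 (0.20, 0.18 and 0.10) and of panobinostat with both compounds (0.24, 0.08 and 0.19) were all positive. Same-numbered pairs of the remaining groups ran from -0.69 to 0.005. The main fit did not use the replicate number. The lowest and the highest value both involve vehicle replicate 1, with panobinostat replicate 1 (-0.69) and 3 (0.49). Why arrays of different groups deviated together was not tested. The number of arrays limits the precision. The alternatives were median centring, quantile normalization, a filter on dim genes, the mean of a gene's probe sets, all probe sets tested, trend and robust eBayes, only the groups compared, a replicate block, array weights and leaving out each array.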

Additional observations from a re-analysis of the deposited data

Results flagged for a closer look

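The effect of JQ1 differed with and without panobinostat for 2 of the 71 genes, by the test of the interaction itself. Both had been named as marker genes of this gene group before the tests. For MAP2K6 the departure from additivity was 1.04 ± 0.11 on the log2 scale (limma adjusted p = 0.00694): JQ1 changed it by 0.19 ± 0.08 on top of panobinostat and by -0.85 ± 0.08 without it, lower than vehicle on 3 of 3 JQ1 arrays. The call was kept under all 20 alternative settings, at 0.97 to 1.09. For MKNK2 the departure was -0.77 ± 0.11 (limma adjusted p = 0.0148): JQ1 changed it by 0.65 ± 0.08 on top of panobinostat and by 1.41 ± 0.08 without it, higher on all arrays in both settings. It was lost when all 53617 probe sets were tested together (adjusted p = 0.0805).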

How the results depend on the processing

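The 7 comparisons made 175 calls among the members, and 134 were kept under every alternative setting, 41 were lost under at least 1, 39 of them when 1 array was left out, and 0 reversed. Losses were 2 of 20 calls with JQ1, 6 of 36 with panobinostat and 6 of 41 with both against vehicle, 9 of 30 for the combination against JQ1, 12 of 24 for the combination against panobinostat, 5 of 22 for panobinostat against JQ1 and 1 of 2 for the departure from additivity. Leaving out 1 array gave counts of 18 to 22, 32 to 36, 38 to 41, 25 to 32, 16 to 24, 17 to 24 and 2 to 3 in that order. The combination against panobinostat gave 14 calls in place of 24 when all probe sets were tested and 14 when only those 6 arrays were fitted. The departures numbered 4 after quantile normalization, 5 without dim genes, 1 with all probe sets and 6 with trend and robust eBayes, in place of 2. The labels number replicates alike in each group, and with the replicate number as a block the counts were 18, 33, 40, 30, 18, 21 and 2. Signal over background is unknown, so no limit can be set for dim genes.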
